A study of Rattus norvegicus with 12 samples.

Results

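Megalin (Lrp2), cubilin (Cubn), amnionless (Amn) and 5 further genes of apical endocytosis (Dab2, Clcn5, Lrpap1, Fcgrt and Ap1s1) were followed in the rat kidney after ischemia and reperfusion. The 8 genes were taken by the gene name that the array scanner files give, and they hold 11 of the 30367 probes and 8 of the 18510 genes tested. RNA levels were measured on 12 single-colour Agilent arrays, each with total RNA of the whole left kidney of 1 female rat of the F344 strain, 10 weeks old. Unilateral ischemia-reperfusion injury (IRI) stops the blood flow of 1 kidney and then lets it return. The 3 groups were 4 rats killed 7 days after a sham operation, 4 rats killed 3 days after IRI and 4 rats killed 7 days after IRI. No treatment other than the operation is given in the labels, the sham group was taken at day 7 only, and no source used here gives the length of the ischemia.

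The proximal tubule takes back proteins that pass the glomerular filter. Megalin, a giant lipoprotein receptor, binds many filtered proteins at the brush border, and cubilin, which has no membrane span of its own, is carried to the surface and anchored by amnionless. The adaptor Dab2 links the receptor tails to clathrin, the chloride/proton exchanger ClC-5 (Clcn5) serves the acidification of endosomes, the chaperone RAP (Lrpap1) escorts new megalin through the secretory pathway, the neonatal Fc receptor (Fcgrt) spares albumin and IgG from breakdown, and the sigma subunit Ap1s1 belongs to the AP-1 adaptor of sorting vesicles.

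At day 3 the receptor complex and its chaperone were lower than in sham: Lrp2 stood at 31.7%, Cubn at 42.7%, Amn at 34.0% and Lrpap1 at 43.6% of the sham signal. Fcgrt was 1.75-fold higher, a call that was lost with the slide as a block and without any of several single arrays. Ap1s1 was 2.15-fold higher on 1 of its 2 probes and not called on the other, while Dab2 and Clcn5 did not pass the test. With normexp background correction, an alternative given below, only Lrp2 and Ap1s1 were called at day 3. By day 7 Amn was at 121% and Lrpap1 at 86.6% of sham, neither apart from sham by the test. Lrp2 at 58.3% and Cubn at 63.3% lay below all 4 sham arrays, yet neither passed the test, and Clcn5 alone was called, at 62.3% of sham.

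The array probes that gave these values are 60 bases long, and the sequences of 6 are shown because all statements on a gene rest on what its probe binds. Each shown sequence has at least 1 reading frame without a stop codon. They are written 5′ to 3′ in lower case, as the scanner files hold them.
Lrp2 probe A_64_P090558: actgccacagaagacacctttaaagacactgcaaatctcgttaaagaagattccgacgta
Cubn probe A_44_P405130: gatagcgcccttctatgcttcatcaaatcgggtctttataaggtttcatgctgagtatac
Amn probe A_42_P472699: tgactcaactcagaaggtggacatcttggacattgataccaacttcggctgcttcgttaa
Dab2 probe A_64_P144944: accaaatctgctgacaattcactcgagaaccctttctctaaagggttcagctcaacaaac
Fcgrt probe A_44_P996997: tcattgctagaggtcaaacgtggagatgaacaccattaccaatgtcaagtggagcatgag
Ap1s1 probe A_42_P749435: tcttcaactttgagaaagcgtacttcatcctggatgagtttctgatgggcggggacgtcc
On the rat build rn4, to which the file headers place the probes, these 6 lie at chr3:51565099-51565158 (minus strand) for Lrp2, chr17:87546312-87546371 (minus) for Cubn, chr6:136038513-136038572 (plus) for Amn, chr2:55734279-55734338 (plus) for Dab2, chr1:95568453-95568512 (minus) for Fcgrt and chr12:20910429-20910488 (minus) for Ap1s1. Clcn5 was read by a probe at chrX:27409818-27409877 (plus) and Lrpap1 by a probe at chr14:81306006-81306065 (plus). Amn was spotted 10 times on each array and its spots were averaged, while each other probe of these genes was spotted once. Lrp2, Dab2 and Ap1s1 had a second probe, and the probe with the higher mean over the 12 arrays stood for each gene. The second probe was dimmer in every group for Lrp2 and Dab2, whereas that of Ap1s1 was dimmer at day 3 only. Exon and UTR positions on rn4 were not used here.

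A level is given as the log2 of the processed signal, an intensity, minus the log2 of the 75th percentile of its array, so that 0 is the level of that percentile. Before this scaling the percentile was higher after IRI: it ran from 225 to 394 on the sham arrays, from 665 to 743 at day 3 and from 422 to 562 at day 7. All differences are therefore relative to the percentile, and unscaled signals can order the groups otherwise. The unscaled signal of the Lrp2 probe ran from 15200 to 27100 in sham and from 11200 to 21200 at day 3, and that of the brighter Dab2 probe from 1010 to 2060 in sham and from 3230 to 3760 at day 3. Pearson correlations between arrays of a group ran from 0.956 to 0.988, and from 65.0% to 80.6% of spots on an array stood well above background. All 11 probes were well above background on all 12 arrays and none was saturated on any.

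Groups were compared with limma, an empirical Bayes linear model fitted over all 18510 genes, with Benjamini-Hochberg adjustment of p over all of them and a threshold of 0.05. At day 3, 6 of the 8 genes were called against sham, 2 higher and 4 lower, where 57.3% of all genes were called (24.2% higher and 33.1% lower). With the second probes of Lrp2, Dab2 and Ap1s1 in their place, a choice added after seeing the data, 5 were called, without Ap1s1. At day 7, 1 of the 8 was called against sham, lower, where 18.8% of all genes were called (8.21% higher and 10.6% lower). Between the days, 4 of the 8 were called at day 7 against day 3, 3 higher and 1 lower, where 31.4% of all genes were called (18% higher and 13.4% lower). At day 3, 5 of the 8 genes had all arrays on 1 side of all sham arrays, 1 above and 4 below, beside 51.7% of all genes (22.2% above and 29.5% below). At day 7 it was 3 of the 8, all below, beside 21.7% of all genes (9.04% above and 12.6% below). Between the days it was 3 of the 8, 2 above and 1 below, beside 36.1% of all genes (18.6% above and 17.5% below). The median log2 change of the 8 genes against sham was -0.81 at day 3 and -0.16 at day 7, beside -0.13 and -0.07 over all genes tested. Both IRI groups were set against the same 4 sham arrays, so these comparisons share their controls. With normexp background correction of the mean spot signals, 2 of the 8 genes, Lrp2 and Ap1s1, were called at day 3 and 0 by limma in the comparisons of day 7 with sham and with day 3 (0 and 3 at an unadjusted p under 0.05), where 3167, 91 and 159 of all genes were called at day 3 against sham, day 7 against sham and day 7 against day 3.

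**Figure D1:**
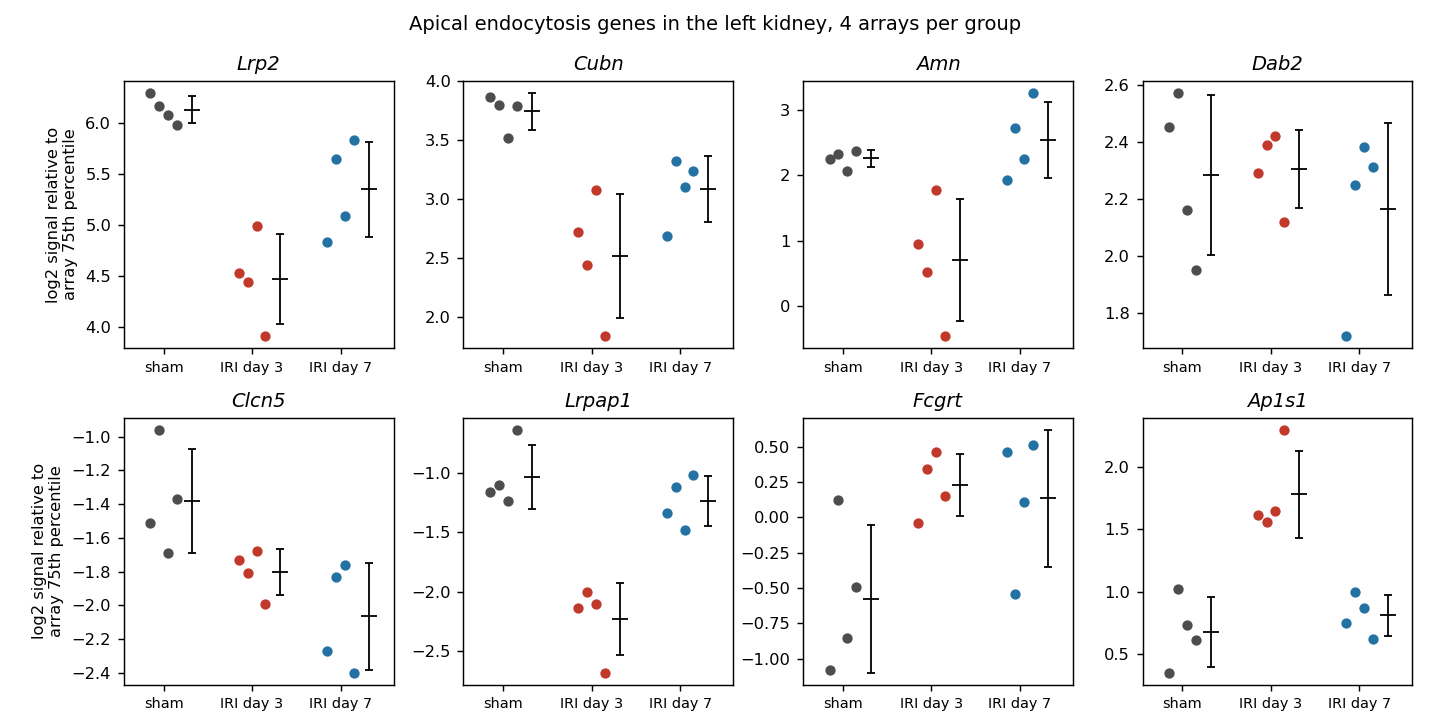
Log2 signal of each of the 8 genes relative to the 75th percentile of its array (y axis, a separate range in each panel) by group (x axis). Each point is 1 array and the bar is the mean ± SD of 4 arrays. At day 3 the points of Lrp2, Cubn, Amn and Lrpap1 all lie below the sham points, and those of Ap1s1 all lie above.

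**Figure D2:**
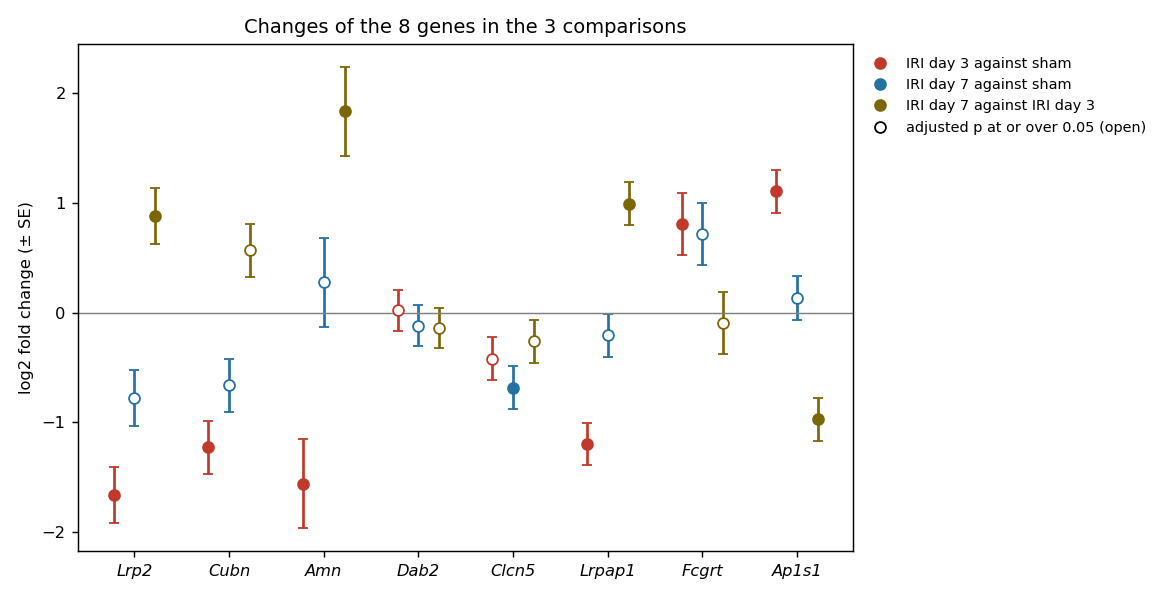
Log2 fold change ± SE (y axis) of the 8 genes (x axis) at day 3 against sham, day 7 against sham and day 7 against day 3. Filled points have an adjusted p under 0.05 by limma: 6, 1 and 4 of the 8 genes in that order.

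Megalin, the receptor of widest ligand range in this pathway, was high in every sham kidney: Lrp2 read 6.29, 6.16, 6.08 and 5.98 (log2 level) on the 4 sham arrays. At day 3 it read 4.53, 4.44, 4.99 and 3.91, and at day 7 it read 4.83, 5.64, 5.09 and 5.83. The day 3 and day 7 arrays all lay below the lowest sham array, and days 3 and 7 overlapped through the highest day 3 array, replicate 3. The day 3 difference from sham was -1.66 ± 0.25 (log2 ± SE, limma adjusted p 0.000218), with a 95% interval from -2.21 to -1.1. At day 7 the difference from sham was -0.78, with a 95% interval from -1.33 to -0.22 (limma adjusted p 0.0518). From day 3 to day 7 Lrp2 rose by 0.88 (limma adjusted p 0.0227). This call was lost on leaving out day 3 replicate 2 or 4, or day 7 replicate 2 or 4 (limma adjusted p from 0.0546 to 0.0702). The day 7 difference from sham, on the other hand, passed the threshold without day 3 replicate 3, day 3 replicate 4 or day 7 replicate 4 (limma adjusted p from 0.0295 to 0.0404).

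The second probe of Lrp2, at chr3:51563808-51563867 (minus strand, rn4), reads another stretch of the same gene. On it the sham arrays read 5.18, 5.47, 5.55 and 5.21, the day 3 arrays 3.62, 3.84, 3.96 and 3.11, and the day 7 arrays 4.32, 4.77, 4.47 and 5.37. Here days 3 and 7 did not overlap, and 3 of the 4 day 7 arrays lay below all of sham. In a fit over all probes the differences on this probe were -1.72 at day 3 (limma adjusted p 0.000138), -0.62 at day 7 (0.0975) and 1.1 between the days (0.00776).

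Cubilin, the receptor for intrinsic factor with B12, albumin and many other ligands, read 3.87, 3.80, 3.52 and 3.79 in sham. It read 2.72, 2.44, 3.08 and 1.84 at day 3 and 2.69, 3.32, 3.10 and 3.24 at day 7. All 8 IRI arrays lay below all 4 sham arrays, and the IRI groups overlapped each other. Cubn differed from sham by -1.23 ± 0.24 at day 3 (log2 ± SE, limma adjusted p 0.00112), a call lost with normexp correction (-0.72, 0.122). At day 7 the difference was -0.66, with a 95% interval from -1.18 to -0.13 (limma adjusted p 0.0755), and it passed the threshold without day 3 replicate 4 (0.0371). Between the days Cubn differed by 0.57, with a 95% interval from 0.04 to 1.09 (limma adjusted p 0.0903), and this passed without day 3 replicate 3 (0.0302).

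Amnionless, the membrane anchor of cubilin, read 2.25, 2.33, 2.07 and 2.37 in sham, 0.95, 0.53, 1.78 and -0.45 at day 3, and 1.93, 2.72, 2.24 and 3.25 at day 7. The day 3 arrays were all below sham and all below day 7, whereas day 7 overlapped sham, with 2 of its 4 arrays above every sham array. Amn differed from sham by -1.56 ± 0.40 at day 3 (log2 ± SE, limma adjusted p 0.00617), a call lost with normexp correction (-0.86, 0.182). It rose 3.56-fold between day 3 and day 7 (log2 difference 1.83, limma adjusted p 0.00721). At day 7 its difference from sham was 0.28, with a 95% interval from -0.60 to 1.16 (limma adjusted p 0.677), so that a moderate change either way could not be told from none. Its SD over the day 3 arrays was 0.93, against 0.13 in sham.

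The lowest and the highest day 3 kidney were the same in these genes of the receptor complex, but not in these genes alone. Replicate 4 was the lowest and replicate 3 the highest of the day 3 arrays in Lrp2, in Cubn and in Amn. The same held for Clcn5 and for the brighter probe of Dab2, neither of which was called at day 3. Lrpap1 was also lowest in replicate 4 and Fcgrt highest in replicate 3, while Ap1s1 on its chromosome 12 probe was highest in replicate 4. Replicate 3 was also the only day 3 array on slide 1 of 3. Within a slide, the day 3 difference from sham ran from -1.94 to -1.14 for Lrp2, from -1.52 to -0.76 for Cubn and from -2.08 to -0.53 for Amn, with 1 or 2 arrays of a group on each slide.

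Lrpap1 encodes RAP, the chaperone that keeps megalin free of ligands until it leaves the endoplasmic reticulum. It read -1.16, -1.1, -1.24 and -0.64 in sham, -2.14, -2.0, -2.10 and -2.68 at day 3, and -1.34, -1.12, -1.48 and -1.02 at day 7. The day 3 arrays lay below all others, and day 7 overlapped sham. The difference from sham was -1.20 ± 0.19 at day 3 (log2 ± SE, limma adjusted p 0.000298). At day 7 it was -0.21, with a 95% interval from -0.63 to 0.21 (limma adjusted p 0.488), and between the days Lrpap1 rose by 0.99 (0.00404). Scaled by total signal in place of the percentile, the day 7 difference was 0.03, on the other side of 0. With normexp correction the day 3 call was lost (-1.07, limma adjusted p 0.0585).

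The promoters of the 4 genes that fell at day 3 are shown. A fall on that day was called in 33.1% of all genes, and a shared control of these 4 was not tested. The 250 bases before the start site were taken from RefSeq on the assembly GRCr8, which is not the build of the probes. All 8 genes had an entry, and Clcn5 had 2. Each sequence runs 5′ to 3′ on the strand of the gene, in lower case, with the letters GGGCGG of an SP1 GC box, or their reverse complement, in capitals.
Lrp2 promoter, chr3:74754536-74754785, minus strand: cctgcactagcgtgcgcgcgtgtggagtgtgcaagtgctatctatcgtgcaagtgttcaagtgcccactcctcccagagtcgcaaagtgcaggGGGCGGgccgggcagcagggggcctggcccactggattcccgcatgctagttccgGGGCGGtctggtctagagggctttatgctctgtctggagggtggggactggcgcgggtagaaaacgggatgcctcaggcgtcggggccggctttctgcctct
Cubn promoter, chr17:81501695-81501944, minus strand: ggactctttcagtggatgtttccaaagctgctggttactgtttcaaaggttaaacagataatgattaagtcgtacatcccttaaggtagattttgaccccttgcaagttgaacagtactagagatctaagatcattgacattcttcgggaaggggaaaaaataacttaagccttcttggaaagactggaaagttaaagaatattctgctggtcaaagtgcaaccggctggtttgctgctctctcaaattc
Amn promoter, chr6:136132317-136132566, plus strand: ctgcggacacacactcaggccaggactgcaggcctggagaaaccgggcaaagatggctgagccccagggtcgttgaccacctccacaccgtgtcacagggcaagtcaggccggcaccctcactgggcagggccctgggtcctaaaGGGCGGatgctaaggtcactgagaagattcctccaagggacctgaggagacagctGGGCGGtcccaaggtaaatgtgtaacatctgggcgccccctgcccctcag
Lrpap1 promoter, chr14:79875752-79876001, plus strand: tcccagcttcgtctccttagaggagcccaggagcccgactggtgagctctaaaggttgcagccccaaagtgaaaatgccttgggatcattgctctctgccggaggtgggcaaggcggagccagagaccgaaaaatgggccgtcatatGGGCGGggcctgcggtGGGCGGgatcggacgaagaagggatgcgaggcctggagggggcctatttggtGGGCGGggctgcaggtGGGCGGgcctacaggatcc
Lrp2 and Amn held 2 GC boxes each, Lrpap1 held 4 and Cubn held none, and 30.5% of 33469 promoters of the same length hold at least 1. Of the other 4 genes, Ap1s1 held 2, 1 of the 2 Clcn5 entries held 1, and Dab2 and Fcgrt held none. The G and C content was 64.4% in Lrp2, 62.8% in Amn, 63.6% in Lrpap1 and 40.0% in Cubn, beside a median of 51.2% over all promoters. Searched on both strands, the HNF1 letters GTTAAT (in 6.45% of promoters), the HNF4 letters CAAAGTCCA (0.338%), the TFEB letters CACGTG (5.59%) and the TATA box TATAAA (12.9%) were in none of the 9 entries. The CCAAT box (34.0%) was in those of Dab2 and Ap1s1. These are matches of letters and say nothing of binding.

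Dab2, the adaptor that couples megalin to clathrin, did not pass the test in either IRI group. Its brighter probe read 2.45, 2.57, 2.16 and 1.95 in sham, 2.29, 2.39, 2.42 and 2.12 at day 3, and 1.72, 2.25, 2.38 and 2.31 at day 7. The 3 groups overlapped, and the lowest array was day 7 replicate 1. The difference from sham was 0.02 at day 3, with a 95% interval from -0.38 to 0.42 (limma adjusted p 0.933), and -0.12 at day 7, with a 95% interval from -0.52 to 0.29 (0.701). The second probe, at chr2:55736106-55736165 (plus strand, rn4), differed from sham by 0.21 at day 3 (limma adjusted p 0.405) and by 0.11 at day 7 (0.763), with no call either. Scaled by total signal, the difference on the brighter probe was 0.30 at day 3 (limma adjusted p 0.178), still without a call.

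Clcn5, whose loss causes Dent disease with low molecular weight proteinuria, read -1.51, -0.96, -1.69 and -1.37 in sham, -1.73, -1.81, -1.68 and -1.99 at day 3, and -2.27, -1.83, -1.76 and -2.40 at day 7. The day 7 arrays lay below all sham arrays, and day 3 overlapped sham by a narrow margin. The difference from sham was -0.42 at day 3, with a 95% interval from -0.84 to 0.01 (limma adjusted p 0.0835), and -0.68 ± 0.19 at day 7 (log2 ± SE, 0.031). The day 3 difference passed the threshold without sham replicate 3 (-0.52, limma adjusted p 0.0464) and with normexp without spots below their local background (-0.48, 0.00516). The day 7 call was lost with total-signal scaling (-0.45, 0.135) and without sham replicate 2 or 4 or day 7 replicate 1 or 4 (limma adjusted p from 0.0526 to 0.0831). Between the days Clcn5 differed by -0.26 (limma adjusted p 0.314).

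Fcgrt, the receptor that returns albumin and IgG to the circulation, read -1.08, 0.12, -0.85 and -0.49 in sham, -0.04, 0.34, 0.46 and 0.15 at day 3, and 0.46, -0.54, 0.11 and 0.51 at day 7. Sham replicate 2 stood above the other sham arrays and overlapped both IRI groups. Against sham, Fcgrt was 0.80 ± 0.28 higher at day 3 (log2 ± SE, limma adjusted p 0.0287) and differed by 0.71 at day 7, with a 95% interval from 0.10 to 1.33 (0.0977). The day 3 call was lost with the slide as a block (0.73, limma adjusted p 0.0561), and the difference was -0.06 within slide 2, where sham replicate 2 lay, against 1.25 and 1.19 within slides 1 and 3. It was also lost without sham replicate 1 or 3 or day 3 replicate 2 or 3 (limma adjusted p from 0.0647 to 0.0851). The same call was lost with normexp correction (0.51, limma adjusted p 0.133). The day 7 difference passed the threshold without sham replicate 2 or day 7 replicate 2 (limma adjusted p 0.0333 and 0.0366) and with total-signal scaling (0.95, 0.0284).

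Ap1s1, the small subunit of the AP-1 adaptor at the trans-Golgi network and endosomes, had 2 probes that did not give the same picture. The probe on chromosome 12 read 0.35, 1.02, 0.73 and 0.61 in sham, 1.62, 1.56, 1.65 and 2.30 at day 3, and 0.75, 1.0, 0.87 and 0.62 at day 7. All day 3 arrays lay above all others, and day 7 lay within the range of sham. On this probe Ap1s1 was 1.11 ± 0.20 higher than sham at day 3 (log2 ± SE, limma adjusted p 0.000595), and it fell by 0.97 from day 3 to day 7 (0.00488). Without day 3 replicate 4, the highest array, the day 3 difference was 0.93. This probe stood for the gene because its mean over the 12 arrays, 1.09, was above the 1.02 of the other probe, and that order came from the day 3 arrays themselves: in sham it averaged 0.68 against 1.05, at day 3 1.78 against 1.15 and at day 7 0.81 against 0.87. The choice of probe was therefore not independent of the difference tested. The other probe is placed at chr5:1881049-1881108 (minus strand, rn4), while the current RefSeq table has Ap1s1 on chromosome 12 only, so what it reads is uncertain. It read 0.77, 0.95, 1.17 and 1.33 in sham, 1.04, 1.34, 1.13 and 1.1 at day 3, and 0.82, 0.67, 1.13 and 0.85 at day 7. Its groups overlapped, with differences from sham of 0.10 at day 3 (limma adjusted p 0.608) and -0.18 at day 7 (0.456).

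**Figure D3:**
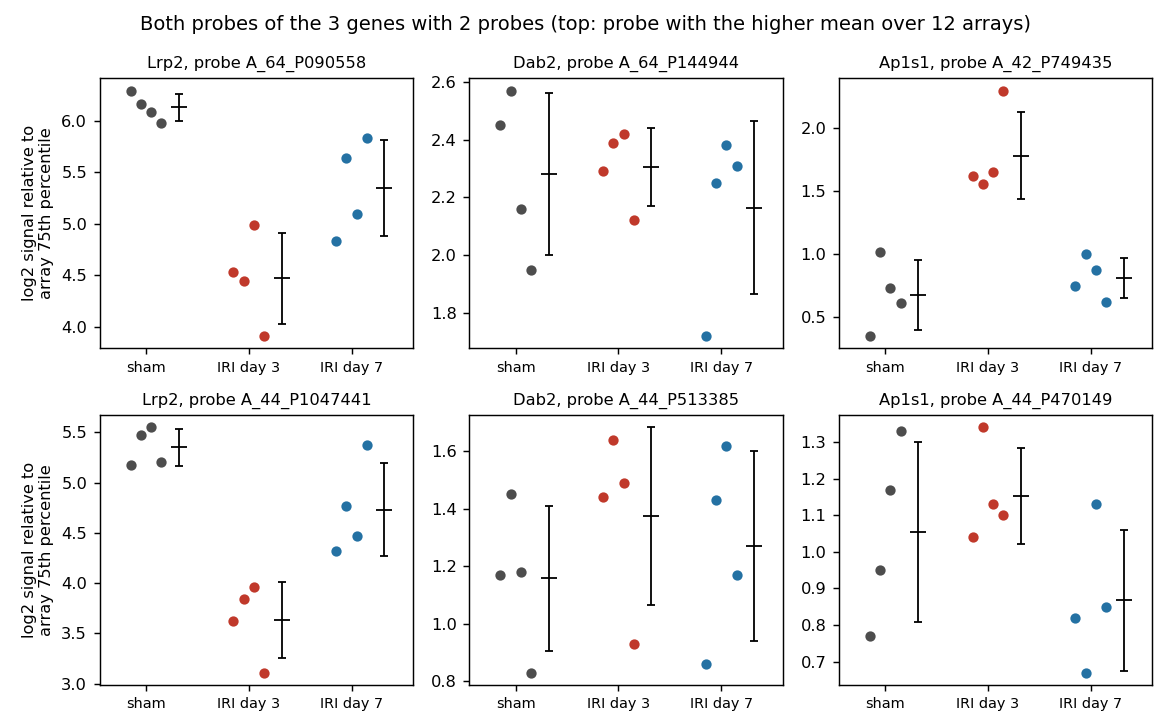
Log2 signal over the array's 75th percentile (y axis, a separate range in each panel) by group (x axis) for both probes of Lrp2, Dab2 and Ap1s1, with the probe of higher mean over the 12 arrays above. For Ap1s1 the upper probe is the brighter one at day 3 only. Each point is 1 array and the bar is the mean ± SD of 4 arrays. Both Lrp2 probes are lowest at day 3, the Dab2 probes overlap in all groups, and the Ap1s1 probes differ, with day 3 apart from sham in the upper panel only.

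How far each gene kept step with megalin was read from the ratio to Lrp2 on the same array, which does not depend on how arrays are scaled by a constant. Each ratio holds the spread of the same Lrp2 probe, so these tests are not independent of each other. At day 3, 4 of the 7 other genes had changed differently from Lrp2, all upward, where 76.5% of all genes had (74.6% upward and 1.92% downward). At day 7 it was 2 of 7, both upward, where 31.4% of all genes had (30.5% upward and 0.913% downward). Between the days it was 5 of 7, 1 upward and 4 downward, where 48.2% had (1.81% upward and 46.4% downward).

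Amnionless stood higher against megalin at day 7 than in sham or at day 3. The log2 ratio of Amn to Lrp2 was -4.03, -3.83, -4.01 and -3.60 in sham, -3.58, -3.91, -3.21 and -4.36 at day 3, and -2.91, -2.91, -2.85 and -2.59 at day 7. Sham and day 3 overlapped, and all day 7 arrays lay above all others. Against sham the ratio differed by 0.10 at day 3, with a 95% interval from -0.56 to 0.76 (limma adjusted p 0.77), and rose by 1.05 at day 7 (0.0193), and between the days by 0.95 (0.02). The day 7 call was lost with the second Lrp2 probe (0.90, limma adjusted p 0.0595), with quantile normalization (0.71, 0.192) and without sham replicate 1 or day 7 replicate 3 (0.0617 and 0.054). The call between the days was lost with the second Lrp2 probe (0.73, limma adjusted p 0.0582) and without day 3 replicate 2, day 3 replicate 4 or day 7 replicate 4 (from 0.0569 to 0.0663).

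The ratio of Amn to its binding partner Cubn was chosen after the values were seen and rests on the same Amn arrays, so it is given as a description only. The log2 ratio of Amn to Cubn was -1.62, -1.47, -1.44 and -1.42 in sham, -1.77, -1.91, -1.30 and -2.29 at day 3, and -0.76, -0.60, -0.86 and 0.01 at day 7. All day 7 arrays lay above all others, and day 3 spread to both sides of sham.

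The ratio of Cubn to Lrp2 was -2.41, -2.36, -2.57 and -2.18 in sham and -1.81, -2.0, -1.91 and -2.07 at day 3, which did not overlap. The change of 0.43 did not pass the test (limma adjusted p 0.185), nor did that of Lrpap1 (0.46, 0.189). Against Lrp2 at day 3, Dab2 was 1.68 higher, Clcn5 1.24 higher, Fcgrt 2.46 higher and Ap1s1 on its chromosome 12 probe 2.76 higher (log2, limma adjusted p from 2.98e-06 to 0.00294). The day 3 call for Clcn5 was lost with normexp correction (0.58, limma adjusted p 0.574). At day 7, of Dab2, Clcn5, Fcgrt and Ap1s1, only Fcgrt was called (1.49, limma adjusted p 0.0102), although its arrays overlapped sham. This call was lost with quantile normalization (1.08, limma adjusted p 0.114). Between day 3 and day 7 the ratios of Dab2, Clcn5, Fcgrt and Ap1s1 to Lrp2 fell by 1.02, 1.14, 0.97 and 1.85. The call for Fcgrt (limma adjusted p 0.0452) was lost without day 3 replicate 1, 2 or 4, day 7 replicate 2 or 4 or sham replicate 4, and that for Clcn5 without day 7 replicate 4 (0.0582).

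**Figure D4:**
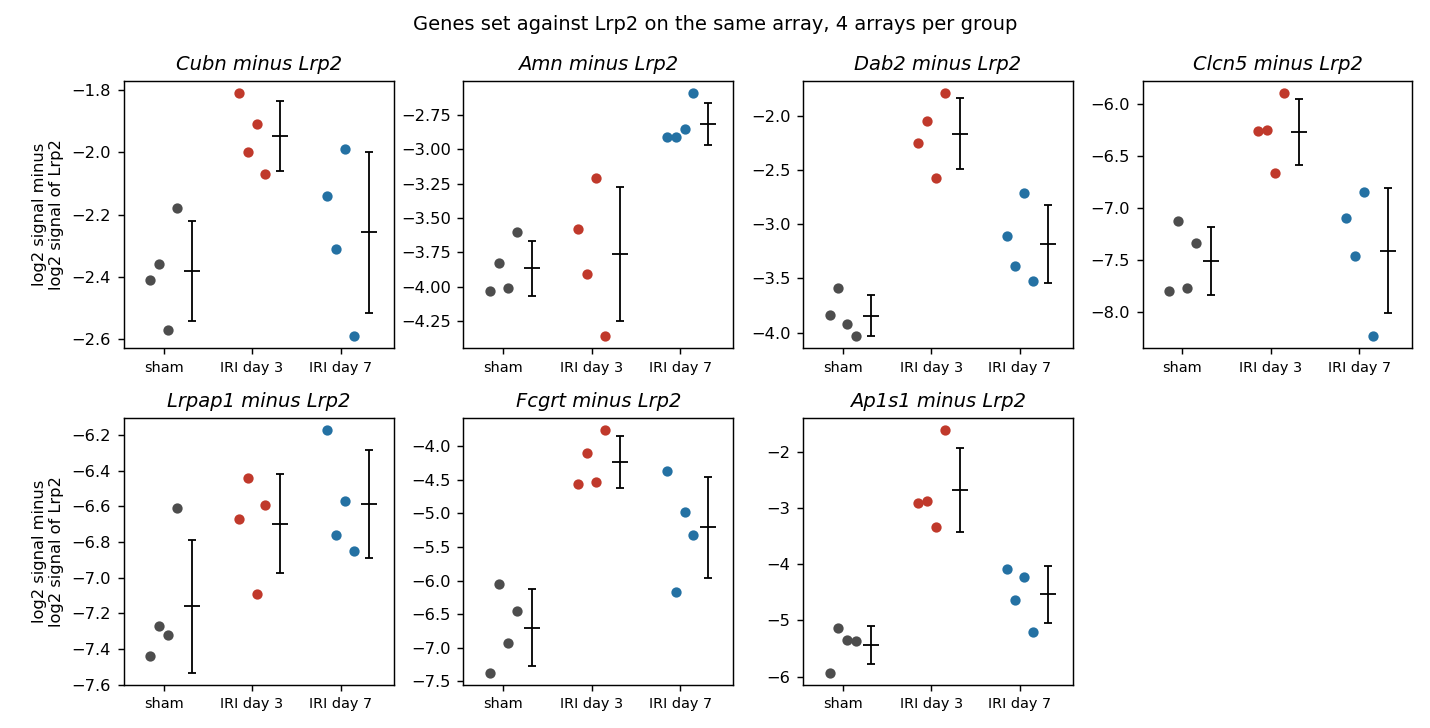
Log2 signal of 7 genes minus that of the brighter Lrp2 probe on the same array (y axis, a separate range in each panel) by group (x axis). Each point is 1 array and the bar is the mean ± SD of 4 arrays. The 4 day 7 arrays of Amn, from -2.91 to -2.59, lie above all sham and day 3 arrays, while Dab2, Clcn5, Fcgrt and Ap1s1 are highest at day 3.

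The genes closest to Lrp2 and Cubn over the 12 arrays were found by the root mean square difference of log2 values, each gene centred on its own mean, among 14614 genes. Among the 5 closest to Lrp2 were Nfs1 (0.114), Emid1 (0.147), Pepd (0.149) and St6galnac3 (0.167). Nfs1 is the cysteine desulfurase of iron-sulfur cluster assembly. Cubn ranked 55, Lrpap1 628 and Amn 3161 in likeness to Lrp2. Closest to Cubn were Hoga1 (0.169), an enzyme of hydroxyproline breakdown, the anion exchanger Slc26a1 (0.179), the bicarbonate transporter Slc4a4 (0.190), an entry named by a transcript number only (0.194) and Gde1 (0.198), and Lrp2 ranked 37. All genes share the groups, the arrays and the scaling, so the measure is a description.

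The RNA came from whole kidney, where fewer cells of a type and less RNA per cell cannot be told apart. All but 1 of the 18 proximal tubule markers stood above background on all 12 arrays. Of these 18 markers of the segment where megalin and cubilin are made, 15 were lower and none higher at day 3. Over all genes, 33.1% were lower and 24.2% higher. The median log2 change of the markers was -2.38. Their summed level, in units of the 75th percentile, was between 636 and 663 in sham, between 60.3 and 186 at day 3 and between 213 and 447 at day 7. On the day 3 arrays the sum was lowest, 60.3, in replicate 4 and highest, 186, in replicate 3, as in Lrp2, Cubn and Amn. Replicate 3 was also the highest day 3 array in the summed macrophage (52), endothelial (23.4), fibroblast and matrix (138), podocyte (6.72) and distal nephron (12.4) markers. The lowest day 3 array in those other sums was replicate 2. In the summed tubular injury genes replicate 3 was the lowest (51.8) and replicate 4 the highest (69.1). Against the fall of Lrp2 at day 3, 9 of the 18 markers fell more, 2 lay higher and 7 were not told apart from it. Single markers ran far apart: Pck1 changed by -6.29 and Slc22a6 by -4.79 at day 3, while Slc5a2 differed by -0.05 (limma adjusted p 0.912) and Slc13a1 by 0.22 (0.464). At day 7, 7 of the 18 were lower and none higher, with a median of -0.88, beside 10.6% of all genes lower and 8.21% higher. The part of the proximal tubule's share of the tissue in these results was not tested.

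Macrophages and vessel cells also make Dab2 or Fcgrt, and their markers moved too. Beside the counts that follow, 24.2% of all genes were higher and 33.1% lower at day 3. At day 7, 8.21% were higher and 10.6% lower. Of 13 macrophage markers tested, 10 were higher and none lower at day 3, and 5 were higher at day 7. Their summed level was 14.9–20.6 (sham), 38.8–52.0 (day 3) and 28.9–38.6 (day 7). The listed Cd163 and Mrc1 were not tested. Msr1 was above background on none of the sham arrays and on 1 day 7 array, and Adgre1 on 2 sham and 3 day 7 arrays. Both entered the test only through day 3, where they were high, so their calls there support nothing. Of 12 endothelial markers, 6 were lower at day 3 and 4 at day 7, none were higher, and the sum was 29.4–37.3 (sham), 15.7–23.4 (day 3) and 15.8–31.9 (day 7). Of 7 podocyte markers, 3 were lower at day 3 and 2 at day 7, and the sum was 15.6–20.6 (sham), 5.04–6.72 (day 3) and 6.49–13.6 (day 7). Of 9 fibroblast and matrix markers, 9 were higher at day 3 and 7 at day 7, and the sum was 17.8–30.5 (sham), 91.4–138 (day 3) and 60.5–83.0 (day 7). Lum, 1 of the 9 at day 3, was above background on no sham array and on 2 day 7 arrays. It entered the test only through day 3, where it was high, so its call supports nothing. Of 9 markers of the thick ascending limb and distal nephron, 9 were lower at day 3 and 1 was higher at day 7, and the sum was 72.5–92.2 (sham), 6.74–12.4 (day 3) and 58.3–76.7 (day 7). Of 10 genes of tubular injury, 10 were higher at day 3 and 8 at day 7, and the sum was 3.31–3.76 (sham), 51.8–69.1 (day 3) and 11.2–40.8 (day 7). The part of these cells in the changes of Fcgrt, Dab2 and Ap1s1 was not tested.

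Of 19 genes tested of the clathrin coat and its adaptors, which megalin shares with other cargo, 3 were higher and 4 lower at day 3, with a median of 0.07. Of all genes, 24.2% were higher and 33.1% lower, so a smaller share of this list was called. Gipc1, a PDZ protein that binds the megalin tail, was 1.60 higher, and Eps15, a coated-pit scaffold, 0.45 higher (log2, limma adjusted p 7.38e-05 and 0.0219). Ap2s1, the small subunit of the AP-2 adaptor, was lower (-1.15), and so was the sorting adaptor Numb (-1.12), with limma adjusted p 5.41e-05 and 9.88e-05. At day 7, 1 was higher, Gipc1 at 1.12, and 3 lower, among them Ap2s1 at -0.48 and Numb at -0.96. A second Numb probe was at -0.57 then, without a call (limma adjusted p 0.0594). These counts rest on 1 probe per gene. A second Ap2b1 probe was higher at day 3 (0.96, limma adjusted p 9.71e-05) and at day 7 (0.47, 0.0273). Second probes of Myo6 (0.54, limma adjusted p 0.0389) and Dnm2 (-0.37, 0.0304) were called at day 3, and that of Hip1r (-0.67, 0.0435) at day 7. The probes that stood for these genes were not called there. Over all genes, 8.21% were higher and 10.6% lower at day 7.

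Of 21 genes of endosomal sorting and recycling, 5 were higher and 2 lower at day 3 (median 0.22), and none was called by limma at day 7 (2 at an unadjusted p under 0.05). Over all genes, 24.2% were higher and 33.1% lower at day 3, and 18.8% were called at day 7. The late-endosome GTPase Rab7a was 0.76 higher at day 3 (limma adjusted p 0.00147), while Rab11fip3 (-1.16) and the recycling protein Ehd3 (-0.91) were lower. Ocrl, the phosphatase lost in Lowe syndrome, was above background on the 4 day 3 arrays only, where it was at least 1.24-fold higher than in sham (limma adjusted p 0.0222). It is 1 of the 5 and entered the test only through the group where it was high, against sham values below background, so that its call supports nothing. For a gene dim in a whole group, such a bound compares the mean of the bright group with the lowest signal well above background on each dim array. The day 3 median of this list was 0.49 with total-signal scaling, and at day 7 it was -0.04, or 0.20 with that scaling.

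Of 16 genes of endosomal acidification, 1 was higher and 8 were lower at day 3, with a median of -0.37 (-0.10 with total-signal scaling). Over all genes, 24.2% were higher and 33.1% lower at day 3, 57.3% in all, and 18.8% were called at day 7. The proton pump subunit Atp6v0b was 0.74 higher (limma adjusted p 0.0433). The sodium/proton exchanger Slc9a3 was lower (-2.55, limma adjusted p 1.29e-05), as was the pump subunit Atp6v1c1 (-0.75, 0.00144). Slc9a3, which also serves sodium uptake at the brush border, was still lower at day 7 (-0.86, limma adjusted p 0.0289) and was the only one of the 16 called then. A second Slc9a3 probe was at -1.02 at day 7 without a call (limma adjusted p 0.171), so the day 7 call rests on 1 probe of 2.

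The other AP-1 subunits moved in both directions at day 3, where 24.2% of all genes were higher and 33.1% lower. At day 7, 18.8% of all genes were called. Of 5 tested, Ap1s2 (1.33, limma adjusted p 0.00413) and Ap1m1 (0.59, 0.0369) were higher at day 3 and Ap1g1 (-0.57, 0.037) was lower, while Ap1b1 (-0.43, 0.0538) and Ap1m2 (-0.36, 0.485) were not called. At day 7 limma called none of the 5, also at an unadjusted p under 0.05 (0 of 5), with values from -0.34 for Ap1g1 to 0.77 for Ap1m2.

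Of the lipoprotein receptors related to megalin that are given here, Vldlr was higher at day 3 (1.36, limma adjusted p 0.0359). The Wnt co-receptors Lrp5 (-1.13, limma adjusted p 0.000456) and Lrp6 (-1.1, 0.0002) were lower. A second probe of Lrp6 differed by 0.17 (limma adjusted p 0.52), so that fall rests on 1 probe of 2. Lrp1 (0.40), Sorl1 (-0.57), Lrp8 (-0.07), Lrp10 (-0.06) and Lrp11 (-0.01) were not called, although a second Lrp11 probe was lower (-0.93, limma adjusted p 0.00687). At day 7, on the probe that stood for each gene, Lrp6 was the only one of these called (-0.71, limma adjusted p 0.0139). Vldlr was at 1.44, Sorl1 at 0.56, Lrp8 at -0.46, Lrp1 at 0.29, Lrp5 at -0.09, Lrp10 at 0.05 and Lrp11 at -0.03. The second Lrp6 probe was at 0.11 then (limma adjusted p 0.773), so the day 7 call also rests on 1 probe of 2. The second Lrp11 probe was lower at day 7 (-0.81, limma adjusted p 0.0397).

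Among 12 genes of filtered ligands and their handling, 2 were higher and 5 lower at day 3, with a median of -0.58. Over all genes, 24.2% were higher and 33.1% lower at day 3, and 8.21% were higher and 10.6% lower at day 7. The megalin ligand Lcn2, an injury marker made in the tubule, was 2.24 higher (limma adjusted p 6.6e-05), and B2m, the light chain of MHC class I and of the neonatal Fc receptor, 1.11 higher (0.000127). Rbp4, the retinol carrier in plasma, was above background on 4 sham, no day 3 and 2 day 7 arrays, and it was at least 63.1-fold lower at day 3 than in sham (limma adjusted p 9e-06). Rbp4 entered the test only through sham, where it was high, so its call is not taken as support. Apom, an apolipoprotein that binds megalin, was lower (-2.92, limma adjusted p 8.18e-05). At day 7, 2 of the 12 were higher and 1 lower, with Lcn2 at 0.96 (limma adjusted p 0.0368), B2m at 0.53 (0.0353) and Apom at -0.96 (0.101).

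Counted against Lrp2 on the same arrays, 74.6% of all genes had changed upward relative to it at day 3 and 1.92% downward, Lrp2 itself being at 31.7% of sham. The counts upward were 16 of 19 clathrin genes, 19 of 21 sorting genes and 15 of 16 acidification genes, while Slc9a3 had fallen more, and nothing particular to these lists is read from them.

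**Figure D5:**
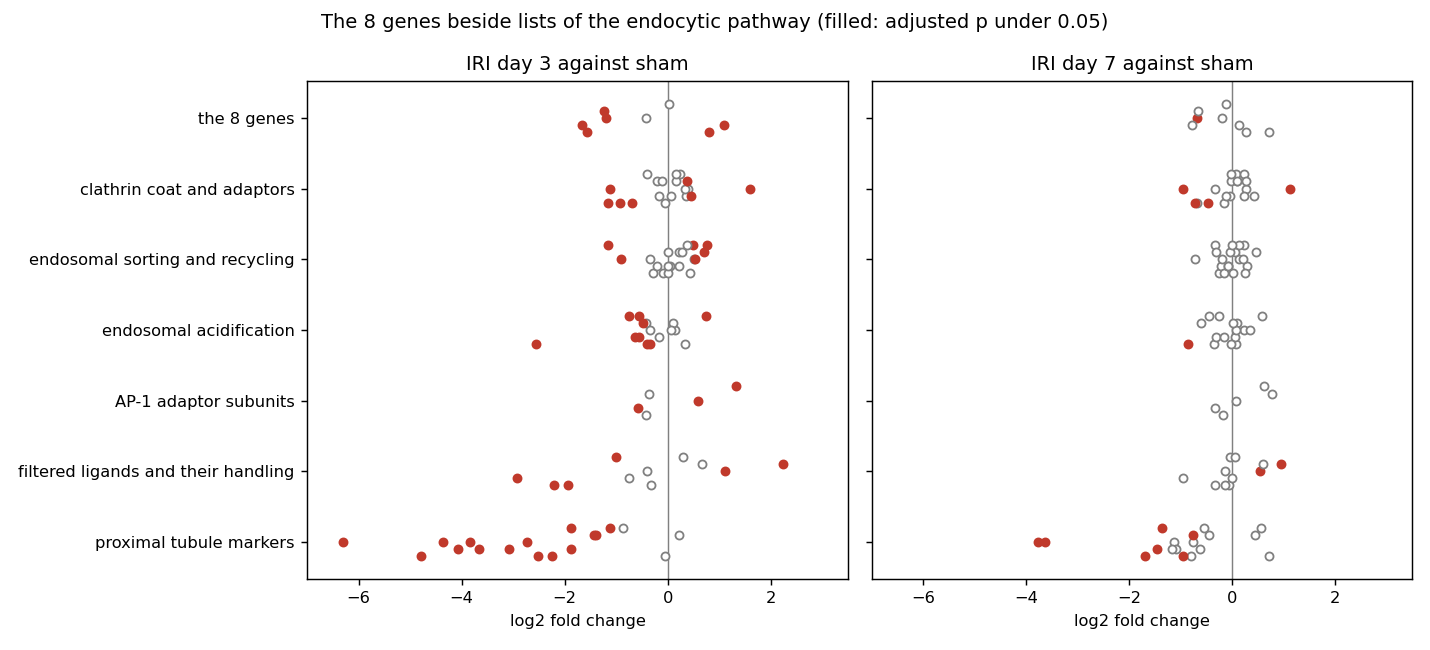
Log2 fold change (x axis) against sham at day 3 (left) and day 7 (right) for the 8 genes, 5 lists of the endocytic pathway and the proximal tubule markers (y axis). Each point is 1 gene, filled where the adjusted p by limma is under 0.05, and points are offset vertically so that they can be told apart. Ocrl and Rbp4, dim in a whole group, are left out. At day 3 the proximal tubule markers reach furthest to the left, to -6.29. The clathrin and sorting lists spread around 0, while 8 of 16 acidification genes are called lower and 1 higher.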

How the data were processed

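Per the labels' protocols, RNA was column-purified, and Cy3 was added with a kit sold for DNA. Per the file headers, Agilent Feature Extraction 9.5.1.1 read the arrays, and probes were placed on rn4. The processed signal is an intensity corrected for background within the array, per the file headers. The mean signal and local background, used in the normexp alternatives, are uncorrected intensities, per the file headers. The flags for background, saturation and outliers are 0 or 1, per the file headers. The value table, as deposited by the authors, holds log2 values centred on the probe (largest median of a probe 4.8e-07) and correlates at 0.998 or more with the scanner values. Its centring removes levels, and its column medians were -0.0011, -0.03, 0.30 and 0.01 in sham replicates 1 to 4, -0.11, -0.16, 0.0018 and -0.21 at day 3 and 0.01, 0.04, 0.0050 and 0.12 at day 7.

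Log2 processed signals minus the array's 75th percentile were used, without outlier spots and with spots of a probe averaged. Probes were kept if the 4 arrays of any group all stood well above background, and the one with the highest mean over all arrays stood for its gene. limma 3.58.1 in R 4.3.3 fitted 1 mean per group with 9 residual degrees of freedom, two-sided, and was tested on simulated data. Probe names were brought up to date through a RefSeq table, except for the 8 genes, taken as the files name them. The genes named are all 8 members, the called genes with the 2 highest and 2 lowest changes of each pathway list at day 3, all AP-1 subunits and lipoprotein receptors related to megalin, and the 5 nearest to Lrp2 and Cubn, of which 2 genes are not reported here. Markers beyond these were chosen after their values were seen. Members and lists were chosen with earlier results of these data known. The number of arrays limits the precision. Alternatives changed scaling, background, filter, outlier spots, probe, slide, scan batch, replicate number, groups fitted and arrays.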

Additional observations from a re-analysis of the deposited data

Results flagged for a closer look

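The day 3 replicate 4 array read 2.30 for Ap1s1 on its chromosome 12 probe, while the other 3 day 3 arrays read 1.56 to 1.65. It stood apart by Dixon's test, in which chance alone marks about 1 in 20 groups, that is 1.65 of the 33 groups of 4 arrays examined. The same array was the lowest of day 3 in Lrp2, Cubn, Amn, Lrpap1, Clcn5, the brighter probe of Dab2 and the summed proximal tubule markers.

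The effect of IRI against sham differed between day 7 and day 3 in 4 of the 8 genes by limma over all genes. As both effects share the sham arrays, this is the comparison of day 7 with day 3 given above, in which 31.4% of all genes were called. It was higher at day 7 by 0.88 for Lrp2, 1.83 for Amn and 0.99 for Lrpap1, and the value for Ap1s1 was -0.97 (log2). All 4 arrays of day 7 lay beyond all 4 of day 3 in Amn, Lrpap1 and Ap1s1, and 3 of 4 did in Lrp2. Over all genes, 36.1% had these groups apart in this way, so nothing particular to the 8 genes is read from it. The Lrp2 call was lost with the replicate block (limma adjusted p 0.0512), with normexp correction (0.321) and without any 1 of 4 arrays, day 3 replicate 2 or 4 and day 7 replicate 2 or 4 (from 0.0546 to 0.0702). With normexp correction the calls of Amn, Lrpap1 and Ap1s1 were lost too (limma adjusted p 0.124, 0.39 and 0.146). The call of Ap1s1 holds for 1 of its 2 probes. The day 3 group had no sham group of its own day.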

How the results depend on the processing

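Of 225 counts of calls recomputed under alternatives, 192 stayed within 1.5 times of the count given, and no called difference of the 8 genes changed sign. With normexp correction, genes called were 3167, 91 and 159 (day 3 against sham, day 7 against sham, day 7 against day 3), members called 2, 0 and 0 (4, 0 and 3 at an unadjusted p under 0.05), and members differing from Lrp2 at day 7 and between the days 0 and 0 (2 and 3). At day 7 against sham, 2087 genes were called with only the 2 groups compared. There the members called were 2 with probes above background on all 12 arrays and 2 with normexp without spots below local background. They were 0 with the deposited value table, 0 without a filter and 0 with only the 2 groups, by limma (4, 4 and 3 at an unadjusted p under 0.05). Members differing from Lrp2 at day 7 were 0 with quantile normalization (2 unadjusted) and 1 with the other probe of Lrp2. Leaving out each array in turn, genes called ran from 2042 to 3476 at day 7 against sham and from 3475 to 6665 between the days, members called at day 7 from 0 to 3, and members differing from Lrp2 from 1 to 3 at day 7 and from 2 to 5 between the days. The cause was not tested. Over the 12 pairs of arrays with the same replicate number, correlations of deviations ran from -0.33 to 0.20. Pairs of unlike number were not set beside them, so whether the numbers pair arrays was not settled. With the replicate block, genes called were 10133, 2464 and 4692, members differing from Lrp2 were 1 at day 7 and 3 between the days, and the calls of Fcgrt at day 3 (adjusted p 0.0565) and of Lrp2 between the days (0.0512) were lost, as were those of the ratio of Amn to Lrp2 at day 7 (0.0533) and between the days (0.0567) and of Fcgrt to Lrp2 between the days (0.0657). Signs of uncalled values turned as follows. At day 3 the Amn minus Lrp2 change was -0.12 with quantile normalization and -0.083 to 0.30 without single arrays, and Dab2 ran from -0.091 to 0.12. At day 7 against sham, total signal gave 0.12 for Dab2 and 0.030 for Lrpap1. Dab2 was 0.37 with normexp, 0.11 with its other probe and -0.23 to 0.030 without single arrays. Ap1s1 was -0.025 with the mean of its probes and -0.18 with the other probe. Clcn5 minus Lrp2 was -0.11 with normexp, -0.36 with quantile normalization, -0.062 with the other Lrp2 probe and -0.090 to 0.37 without single arrays. Cubn minus Lrp2 was -0.24 and -0.040 with quantile normalization and the other probe. Between the days, Clcn5 was 0.10 with normexp and 0.0091 without its spots below background, Dab2 ran from -0.21 to 0.0090 and Fcgrt from -0.22 to 0.13 without single arrays. Lrpap1 minus Lrp2 was -0.053 with normexp, -0.079 with quantile normalization, -0.11 with the other probe and -0.026 to 0.20 without single arrays. Total-signal scaling moved the median of all genes to 0.15 at day 3 and 0.17 at day 7, and the higher genes' share of the calls to 58.6% and 78.0%. The other-probe fits and the ratio of Amn to Cubn were added after seeing the data.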
